A study of Mus musculus with 9 samples.

Results

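A set of 10 regulators of glial fate, chosen by gene symbol, was followed through 9 mouse RNA-seq libraries: the receptor gene Notch1, its target Hes1, the SOX factors Sox2 and Sox9, the eye-field homeobox factors Pax6, Lhx2, Rax and Six3, and the nuclear factors I Nfia and Nfib. All 10 were found by symbol among the 16367 genes of the table for sorted cells and the 17035 genes of the table for cultures, and all 10 passed the filter on low values described below. The rule names genes and uses no measured value. The 10 factors and the gene lists below were, however, chosen with earlier results of these data known. The 9 libraries form 3 groups of 3, and every animal is labelled wild type. In the sham group the cornea was only pierced and no oil was given. In the OHT (ocular hypertension) group, 1.2 µL of silicone oil was placed in the front chamber of each eye, which gives a chronic, mild rise in eye pressure. Per the labels, cells of these 6 libraries came from 4 pooled retinas each, were depleted of dead cells and were captured on magnetic beads with an antibody to GLAST, a glutamate transporter of Müller glia that astrocytes also carry. The sources used here do not give the age, sex or strain of these animals or the time after injection. The culture group holds untreated primary Müller glia from C57BL/6J pups aged 8 to 10 days, grown with 10% serum on gelatin and passaged once confluent. Nothing in the labels says whether the cultures came from separate litters, so the spread between them may be technical, and p-values measure only the spread between these libraries.

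Müller glia are the main glia of the retina and arise last from the same progenitors as its neurons. When a ligand binds, NOTCH1 is cut and its freed part joins the DNA-binding protein RBPJ to switch on genes of the HES and HEY families, repressors that hold back neuron-forming (proneural) factors. SOX2 and SOX9 maintain progenitors and glia, PAX6, LHX2, RAX and SIX3 specify the eye field and remain on in Müller glia, and NFIA and NFIB promote glial fate and restrain the return of mature Müller glia to a neuron-producing state.

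RBPJ binds DNA through the core TGGGAA, so this core was sought on both strands of the 250 bases before each start in the RefSeq promoter table (build GRCm38.p6, which is not the mm39 build named for the deposited files). The table held 6 of the 10 factors, and no window was read for Sox9, Rax, Nfib or Hes1. The core stood in the windows of Lhx2 and of Hes5, a Notch target that is not among the 10 and is described below, but not in those of Notch1, Sox2, Pax6, Six3 or Nfia. Of all 32851 promoters in the table, 21.6% held it. Hes5 had 2 copies, starting 226 and 82 bases before its start, on opposite strands, and Lhx2 had 1 at each of its 2 starts, 230 bases before the upstream start and 9 bases before the downstream one. The Hes5 window and the upstream Lhx2 window lie at chr4:154960673-154960922 (plus strand, Hes5) and chr2:38339031-38339280 (plus strand, Lhx2) and are shown 5′ to 3′ because they hold the core, which stands in capitals (TTCCCA is the core on the other strand). The window of the downstream Lhx2 start is not printed.
Hes5: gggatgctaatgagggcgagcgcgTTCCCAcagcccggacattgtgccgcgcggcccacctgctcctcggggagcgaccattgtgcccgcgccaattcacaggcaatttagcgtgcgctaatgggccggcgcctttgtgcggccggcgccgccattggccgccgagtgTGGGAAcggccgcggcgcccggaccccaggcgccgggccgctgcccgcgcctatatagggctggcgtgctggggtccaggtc
Lhx2: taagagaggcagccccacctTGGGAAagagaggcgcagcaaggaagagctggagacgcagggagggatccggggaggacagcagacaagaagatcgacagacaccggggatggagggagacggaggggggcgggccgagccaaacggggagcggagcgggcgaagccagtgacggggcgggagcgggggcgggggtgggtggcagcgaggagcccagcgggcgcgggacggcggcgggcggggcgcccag
These are matches of letters and not measured binding sites.

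The deposited values are normalised counts, gene counts divided by 1 factor per library, and levels set across the tables are given in ppm (reads per 1000000 reads of the library). Recovered depth ran from 37822145 to 53592052 reads in the sorted libraries and from 66309309 to 76745389 in the cultures. The summed Müller glia list (10 genes, all detected in every library, among them Slc1a3, the gene of GLAST) took 0.323% to 0.820% of reads in sham, 0.177% to 0.387% in OHT and 0.0229% to 0.0389% in the cultures. The microglia and macrophage list (12 genes, none at 0) took more in the sorted libraries, 3.97% to 5.58% in sham and 6.07% to 7.84% in OHT, so these libraries also hold RNA of microglia or macrophages, and in bulk RNA fewer cells of a type and less RNA per cell cannot be told apart. The rod list (10 genes) ran from 0.245% to 2.34% in sham and from 0.0839% to 0.307% in OHT. The astrocyte list (6 genes) ran from 5.98e-04% to 0.135% in sham and from 0.00600% to 0.00919% in OHT, with the astrocyte factor Pax2 at 0 in sham 1, OHT 1 and OHT 2. The amacrine, ganglion cell, bipolar, horizontal and pigment epithelium lists each took at most 0.0287% in any sorted library. In the cultures the mural and fibroblast list (8 genes) took 0.481% to 0.744%, against at most 0.0242% in any sorted library, and the Müller glia marker Rlbp1 was between 1.60 and 2.84 ppm there, against 389 to 2090 ppm in the sorted libraries. The defining markers of the cell type named on the culture labels were thus near their lowest, and these libraries are called cultures below.

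OHT was compared with sham by limma on log2(value + 1) over 14403 genes whose mean reached 10, and a gene was called at a Benjamini-Hochberg adjusted p under 0.05. No factor of the 10 passed, as no gene did (0% of all genes called, smallest adjusted p = 0.332). At an unadjusted p under 0.05, Sox9 and Rax were lower in OHT, 2 of 10, where 6.30% of all genes were. Sox2, Sox9, Lhx2, Rax and Notch1 had all 3 OHT libraries below all 3 sham libraries, 5 of 10, where 9.18% of all genes did, and none had all 3 above. The fitted difference was below 0 for 8 of the 10 and for 7886 of the 14403 genes, with a median log2 of -0.92 against -0.12 over all genes. DESeq2 on the recovered reads called Sox9 and Rax lower at an adjusted p under 0.05, and 1.41% of the genes it tested in that direction. By edgeR's quasi-likelihood test 0 genes were called, while 1575 had an unadjusted p under 0.05. A difference that misses the threshold is not shown to be absent: the standard errors of the 10 ran from 0.42 to 0.74 on the log2 scale.

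**Figure D1:**
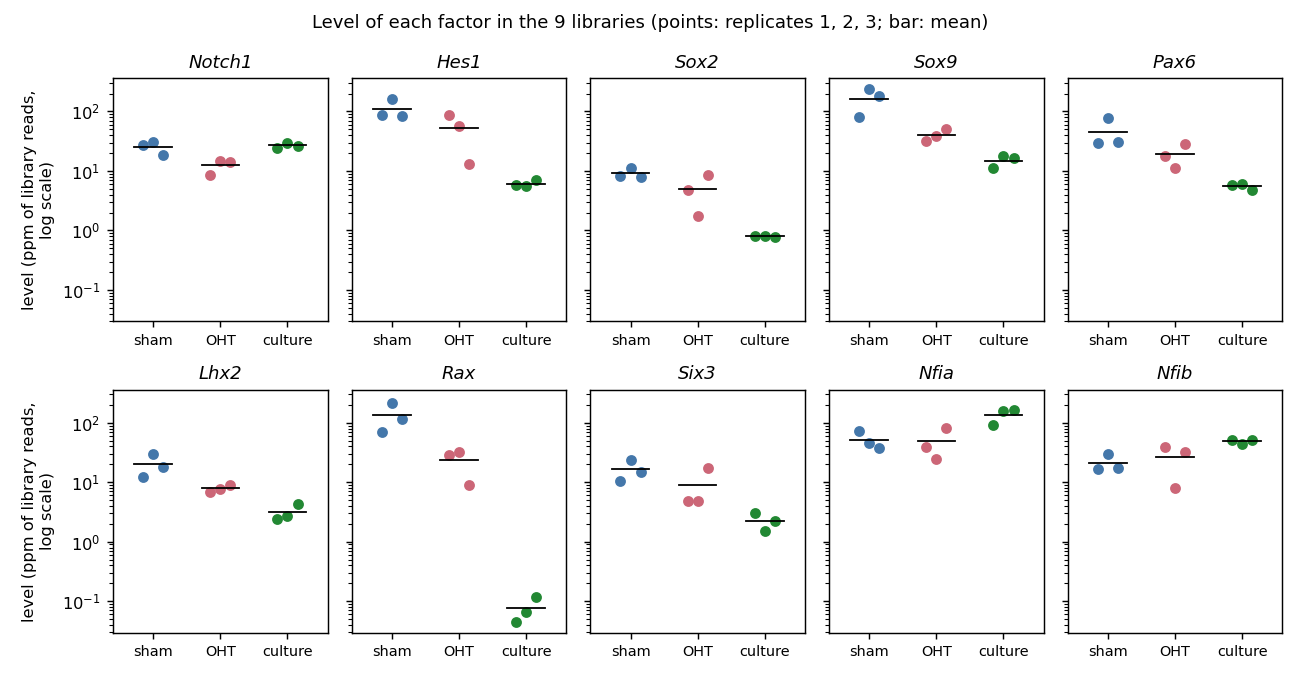
Level of each of the 10 factors in ppm of library reads (log axis) in the 3 sham, 3 OHT and 3 culture libraries; points are libraries in the order of replicates 1, 2 and 3, bars are group means. Rax spans the widest range, from 212 ppm in sham 2 to 0.0452 ppm in culture 1, while Nfia and Nfib are highest on average in the cultures.

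The libraries did not contribute evenly to these differences. Sham 2, which also had the highest Müller glia list (0.820% of reads), held the highest normalised count of 8 of the 10 factors among the 6 sorted libraries. OHT 2 held the lowest value of Sox2, Sox9, Pax6, Six3, Nfia and Nfib, and OHT 3 that of Lhx2, Rax, Hes1 and Notch1. Each of the 10 factors thus had its lowest sorted value in OHT 2 or OHT 3. The shares of all genes highest in sham 2, or lowest in OHT 2 or OHT 3, were not computed. These counts therefore do not show whether the 10 differ from other genes.

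Notch1 encodes the receptor that starts the pathway. Its normalised count was 1084, 1195 and 801 in sham replicates 1 to 3 and 567, 646 and 525 in OHT. All OHT libraries lay below all sham libraries and the spread within each group was small, with a highest-to-lowest ratio of 1.49 in sham and 1.23 in OHT. The log2 difference was -0.81 ± 0.45 (SE, n = 3 per group, limma adjusted p = 0.491). After a correction of each library for GC content and transcript length it was 0.05, so its direction rests on the scaling. Annotated antisense genes overlap exons of Notch1, and the sources used here do not state whether strand was used in counting, so reads of the 2 strands cannot be told apart for it.

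The other receptors differed among themselves. Notch2, a paralogue with the same signalling route, was at 1832, 953 and 1419 in sham and 4406, 1275 and 2778 in OHT, so its groups overlapped and its mean was the higher in OHT. Notch3, a receptor of mural cells, was at 26.9, 50.7 and 11.5 in sham and 0, 3.29 and 5.61 in OHT, with a log2 difference of -3.10 ± 1.58 (limma adjusted p = 0.466) that was -1.51 with a pseudocount of 10. Notch4, a receptor of endothelial cells, was at 165, 149 and 106 in sham and at 33.2, 137 and 2.40 in OHT, with a log2 difference of -2.46 ± 1.33 (limma adjusted p = 0.486) that ran from -4.29 ± 1.96 with the mean of a rod marker list as a covariate to -1.02 without OHT 3. OHT was thus below sham without overlap for Notch3, while OHT 2 reached the sham range of Notch4. Beside these 2 genes, the mural and fibroblast list was at 0.0119% to 0.0242% in sham and 8.83e-04% to 0.00475% in OHT, with Cspg4, Kcnj8, Col3a1, Dcn and Lum each at 0 in at least 1 of the 9 libraries, and the endothelial list (6 genes) was at 0.0215% to 0.0450% in sham and 0.0107% to 0.0199% in OHT. Neither list overlapped between the groups, and their part in the Notch3 and Notch4 values was not tested. The rod list used as a covariate here and below was also lower on average in OHT (0.162% against 1.48% of reads, with overlap). A fit with this covariate therefore cannot part the rod list well from the group.

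Of 5 ligand genes 4 passed the filter, and none separated the groups. Jag1, the most abundant, was at 787, 436 and 364 in sham and 2024, 433 and 355 in OHT, with OHT 1 alone high. Dll1 had the same library on top, at 589 in OHT 1 against 5.76 and 15.2 in the other OHT libraries and 55.8, 38.7 and 132 in sham. Dll4, a ligand of endothelial tip cells, was at 14.5, 45.2 and 1.91 in sham and 0, 13.2 and 0 in OHT, with a log2 difference of -2.40 ± 1.90 that ran from -3.67 to -0.93 over the alternatives. Jag2 was at 74.4, 144 and 220 in sham and 15.2, 76.6 and 163 in OHT, with overlap, and its log2 difference of -1.18 ± 1.07 was -0.25 without OHT 1 and 0.12 ± 1.65 with the rod covariate.

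Of 13 genes of Notch processing and glycosylation, 7 had a difference below 0. Their median log2 of -0.22 had no stable sign, since it was 0.40 without OHT 3, 0.31 after the GC and length correction and 0.05 with a mean of at least 100. Psenen, a subunit of the γ-secretase that frees the receptor's inner part, was at 4332, 2953 and 4269 in sham and 10733, 5073 and 7731 in OHT. All OHT libraries lay above all sham libraries, and the log2 difference was 0.98 ± 0.37 (limma adjusted p = 0.365). Exons of Psenen overlap those of the opposite-strand gene U2af1l4, which was also highest in OHT 1, at 2193 against 969 to 1199 in sham. Rfng, which adds sugars to the receptor, was at 1042, 1474 and 1189 in sham and 770, 1214 and 94.6 in OHT, where OHT 3 was far below the rest. Among the most abundant of the list, the sheddase gene Adam10 had a mean of 7466 ± 2999 in sham and 8954 ± 1315 in OHT (SD, n = 3), and the γ-secretase gene Ncstn 6191 ± 622 and 8616 ± 1962.

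The nuclear complex that the freed receptor joins had a median log2 difference of -0.16 over 5 genes, which was 0.54 after the GC and length correction and 0.30 without OHT 1. Rbpj, the DNA-binding partner, was at 2230, 2316 and 2405 in sham and 3059, 2790 and 3177 in OHT. The OHT values all lay above sham, by a log2 of 0.38 ± 0.32 (limma adjusted p = 0.634), and spread little within each group. Spen, a co-repressor that binds RBPJ, was at 817, 1007 and 703 in sham and 242, 626 and 648 in OHT, lower without overlap, with a log2 difference of -0.85 ± 0.54 that became 0.10 after the GC and length correction. Maml2, a co-activator, had overlapping groups, with means of 2156 ± 510 and 3038 ± 1128.

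Of the 5 Notch lists, that of the target genes was the only one with every difference below 0. Hes1, the target among the 10, was at 3435, 6414 and 3518 in sham and 5632, 2557 and 496 in OHT. Its OHT libraries spread 11.4-fold, the widest of the 10 factors, and OHT 1 lay within the sham range, so the log2 difference of -1.15 ± 0.71 (limma adjusted p = 0.527) rests largely on OHT 3 and is -0.17 without it, and -1.92 without OHT 1. The other 6 genes of this list, which was chosen by name, all had a difference below 0, where 7886 of 14403 genes did. Their median log2 was -2.08, against -0.12 over all genes. No gene of the list passed limma's threshold. Hes6 was listed as a HES family gene, and whether Notch switches it on was not examined here.

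Hes5, whose promoter with 2 RBPJ cores is printed above, encodes a HES repressor that Notch signalling switches on in progenitors and glia. Its normalised count was 2030, 4333 and 1067 in sham and 263, 784 and 114 in OHT. The highest OHT library was below the lowest sham library, and the log2 difference was -2.88 ± 0.73 (limma adjusted p = 0.332), the smallest p among the Notch lists. It ran from -3.60 without OHT 2 to -2.21 without OHT 3. Hey2, a HEY repressor, was at 232, 622 and 553 in sham and 69.1, 87.3 and 99.4 in OHT, also without overlap, with a log2 difference of -2.34 ± 0.74 (limma adjusted p = 0.332) that was -1.39 ± 1.20 with the rod covariate. DESeq2 called both, with adjusted p = 0.0144 for Hes5 and 0.0224 for Hey2, and over all alternatives the adjusted p of each ran from that value to 0.999. Nrarp, a feedback inhibitor named here after its values were seen, was at 303, 575 and 313 in sham and 111, 204 and 53.7 in OHT. It was the third of the 6 genes of this list lower without overlap, where 9.18% of all genes were. Hes6 was not lower in OHT 1 and OHT 2, at 1984 and 2200 against 1525, 1644 and 2015 in sham, and was low only in OHT 3, at 357. Exons of Hes5 and Nrarp overlap annotated antisense genes, with the limit given for Notch1.

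**Figure D2:**
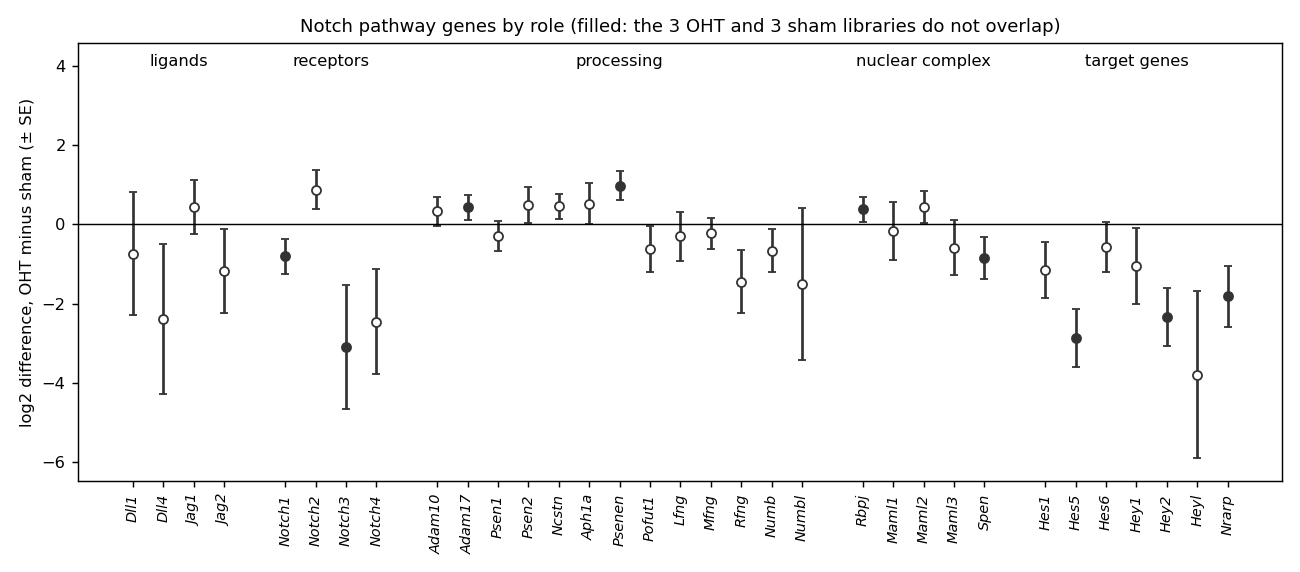
Log2 difference of OHT minus sham with its standard error (limma, n = 3 per group) for the genes of the Notch pathway that passed the filter, ordered by role and including Notch1 and Hes1; filled points are genes whose OHT and sham libraries do not overlap. All 7 genes listed as targets lie below 0, while the processing genes lie on both sides of it.

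Sox9, a factor of progenitors and Müller glia that astrocytes also express, was at 3130, 9215 and 7600 in sham and 2132, 1731 and 1910 in OHT. The OHT libraries lay close together, within 1.23-fold, and below every sham library, while sham 1 lay well under sham 2 and sham 3. The log2 difference was -1.65 ± 0.42 (limma adjusted p = 0.332), a 3.14-fold lower level. DESeq2 gave an adjusted p of 0.0156, and over all alternatives the adjusted p ran from 0.0156 to 0.999. Once the mean rod list was added as a covariate the difference was -0.70 ± 0.57. Sham 1, the sham library with the lowest Sox9, was also the one with the lowest astrocyte list, 5.98e-04% of reads, against 0.0736% and 0.135% in sham 2 and sham 3. The part of astrocytes in the Sox9 values was not tested, and without sham 1 the difference was -2.13.

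Sox2, a factor of progenitors that stays on in Müller glia and some amacrine cells, was at 321, 437 and 342 in sham and 318, 75.7 and 320 in OHT. OHT 1 and OHT 3 almost touched the lowest sham library, and OHT 2 alone was low, so the log2 difference of -0.87 ± 0.74 (limma adjusted p = 0.623) is -0.19 without OHT 2. With the rod covariate it was -0.17 ± 1.19. In ppm the groups overlapped, since OHT 3 was at 8.46 and sham 3 at 8.03.

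Among the other SOX and NFI factors, 7 of 9 were in the sorted table and 5 passed the filter, with no gene separating the groups and a median log2 of -0.05 that was 0.74 after the GC and length correction. Sox8, the relative of Sox9, was at 388, 908 and 380 in sham and 649, 151 and 36.1 in OHT, with OHT 1 inside the sham range. Sox4 was at 685, 399 and 344 in sham and 3244, 566 and 485 in OHT, with OHT 1 far above all others, as for Jag1 and Dll1. Nfic and Nfix, paralogues of Nfia and Nfib, had means of 2365 ± 338 and 1474 ± 253 in sham and 2385 ± 843 and 1499 ± 576 in OHT.

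The 4 homeobox factors all had a difference below 0, and Rax showed the lowest. Rax, which starts eye formation and later marks Müller glia, was at 2784, 8335 and 4884 in sham and 1881, 1416 and 345 in OHT. The highest OHT library lay below the lowest sham library, and OHT 3 stood well under the other OHT libraries. The log2 difference was -2.31 ± 0.62 (limma adjusted p = 0.332), a 4.97-fold lower level, and it was -1.57 without OHT 3 and -1.73 after the GC and length correction. DESeq2 gave an adjusted p of 0.0298, in a range over all alternatives from 0.0298 to 0.999. With the rod list as a covariate the difference stayed at -2.21 ± 0.94.

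Lhx2, a LIM-homeobox factor that keeps Müller glia in their resting state, was at 485, 1181 and 762 in sham and 457, 340 and 337 in OHT. OHT 1 came near sham 1 without reaching it, and the log2 difference was -1.02 ± 0.54 (limma adjusted p = 0.477). It was -0.27 after the GC and length correction and -0.41 ± 0.89 with the rod covariate. Pax6, a factor of progenitors, amacrine, horizontal and ganglion cells as well as Müller glia, was at 1145, 3046 and 1319 in sham and 1173, 492 and 1082 in OHT. Sham 2 alone was high and OHT 1 lay above sham 1, so the groups overlapped, with a log2 difference of -0.96 ± 0.52 (limma adjusted p = 0.485) that was -0.52 without sham 2 and -0.14 ± 0.77 once the rod covariate was added. In ppm its highest OHT library, at 28.6, was just under its lowest sham library, at 29.3.

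Six3, which acts in forebrain and eye-field patterning, was at 406, 949 and 639 in sham and 319, 212 and 646 in OHT. OHT 3 lay in the middle of the sham range, and the log2 difference was -0.83 ± 0.61 (limma adjusted p = 0.582), or 0.26 ± 0.93 with the rod list as a covariate. Its antisense neighbour Six3os1, which shares exonic sequence with it, was at 1497, 2811 and 1463 in sham and 857, 802 and 1254 in OHT, so all its OHT libraries lay below sham. Reads of the 2 genes cannot be told apart where they overlap, and the same holds for Rax and Nfia, whose exons overlap other annotated antisense genes.

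All 8 other retinal progenitor factors also had a difference below 0, with a median log2 of -1.37 that was -0.68 with the rod covariate. Over all genes, 7886 of 14403 had a difference below 0, with a median log2 of -0.12. Nr2e1, a nuclear receptor of progenitors and Müller glia, was at 527, 1415 and 949 in sham and 151, 476 and 86.5 in OHT, lower without overlap, with a log2 difference of -2.27 ± 0.72 (limma adjusted p = 0.332) that was -2.95 without OHT 2. Meis2 was at 156, 458 and 592 in sham and 35.9, 23.0 and 119 in OHT, with a log2 difference of -2.88 ± 0.94 (limma adjusted p = 0.339) that was -1.06 ± 1.37 with the rod list as a covariate. The third of this list without overlap, named after its values were seen, was Zic1, at 44.4, 137 and 188 in sham and 6.91, 14.0 and 3.21 in OHT. These 3 of 8 stand beside 9.18% of all genes that were lower without overlap. Six6, a paralogue of Six3 in the eye field and the most abundant of the list, overlapped, with nearly equal means of 1822 ± 549 in sham and 1675 ± 839 in OHT.

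The NFI factors were the 2 of the 10 with a fitted difference above 0. Nfia was at 2794, 1835 and 1579 in sham and 2610, 1090 and 3087 in OHT. The highest and the lowest of the 6 values were both OHT libraries, and the log2 difference was 0.04 ± 0.46 (limma adjusted p = 0.977). Nfib was at 643, 1173 and 747 in sham and 2593, 347 and 1240 in OHT. Here too the OHT group held both extremes, with a 7.47-fold spread, and the log2 difference of 0.33 ± 0.66 (limma adjusted p = 0.845) became -0.33 without OHT 1, 1.12 without OHT 2 and 1.09 ± 0.99 with the rod covariate. The difference between the NFI and the other factors was not tested.

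Because the Müller glia list itself was lower on average in OHT (0.247% ± 0.121 against 0.495% ± 0.281 of reads, SD, n = 3, with overlap), each gene was also fitted relative to the mean log2 level of that list in its library. On this scale the median gene stood 0.54 higher in OHT instead of 0.12 lower. None of the 10 passed (limma, adjusted p from 0.320 to 0.958), where 0.389% of all genes did. Sox9, Pax6 and Rax had all OHT libraries below all sham libraries, 3 of 10, where 2.71% of all genes did. With Glul alone in place of the list, 0 of the 10 did.

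Rax relative to the list stood between -1.30 and -0.67 in sham and at -1.91, -1.68 and -4.33 in OHT (log2 of the gene minus the list mean). All OHT values lay below sham, by -1.65 ± 0.69, with OHT 3 far below the rest, and the difference was -0.81 without OHT 3. Sox9 stood at -1.13, -0.86 and -0.03 in sham and -1.73, -1.39 and -1.87 in OHT, a difference of -0.99 ± 0.67. Pax6 stood at -2.58, -2.45 and -2.56 in sham, the tightest of the 10, and at -2.59, -3.21 and -2.68 in OHT, so that OHT 1 missed the sham range by the last digit.

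The other factors of the 10 overlapped on this scale. Notch1, Sox2, Lhx2 and Six3 had differences of -0.15, -0.21, -0.35 and -0.16, each under its standard error. Hes1 had -0.48 ± 0.68, from values of -0.33 and -0.83 in OHT 1 and OHT 2, above all sham libraries, and -3.81 in OHT 3. Nfia and Nfib had 0.70 ± 0.70 and 0.99 ± 0.77, above that of the median gene. Hes5 had -2.21 ± 0.79 (limma adjusted p = 0.205), and its groups overlapped. Of the 6 listed target genes other than Hes1, only 1, Hey2, lay lower without overlap on this scale, where 2.71% of all genes did.

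**Figure D3:**
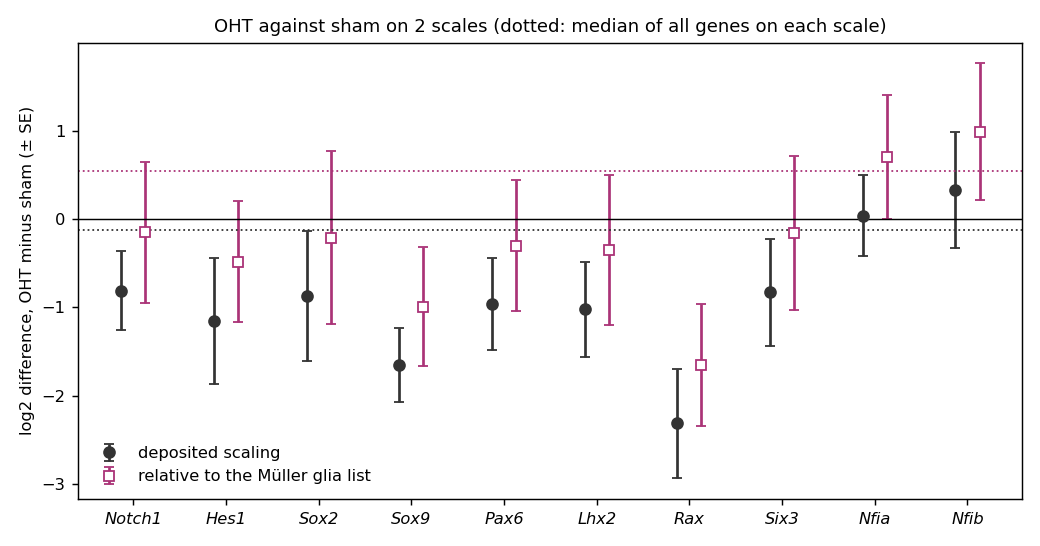
Log2 difference of OHT minus sham with its standard error (limma, n = 3 per group) for the 10 factors, on the deposited scaling (filled circles) and relative to the Müller glia list (open squares); dotted lines are the medians of all genes, -0.12 and 0.54. Rax and Sox9 lie lowest on both scales, and the NFI factors lie highest.

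The list of proneural factors held 11 genes, with Lin28a and Lin28b placed beside them. Of these, 8 were in the sorted table and 3 passed the filter. Neurod1, a factor of photoreceptors too, was at 626, 1538 and 2017 in sham and 99.5, 112 and 869 in OHT, with a log2 difference of -2.54 ± 0.83 (limma adjusted p = 0.340) that was -0.62 ± 1.05 with the rod list as a covariate. Sham 1 was the lowest sham library and OHT 3 the highest OHT library in both Neurod1 and the rod list (0.245% and 0.307% of reads). Neurod4 was at 999, 383 and 374 in sham and 1045, 444 and 1098 in OHT, with overlap.

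The ID proteins, which block proneural factors by binding their partners, did not share a direction. Id2 was at 11178, 10668 and 17116 in sham and 31226, 20935 and 29791 in OHT, all OHT libraries above all sham libraries, with a log2 difference of 1.08 ± 0.34 (limma adjusted p = 0.332). The microglia and macrophage list was likewise higher in OHT without overlap (6.07% to 7.84% against 3.97% to 5.58% of reads), and its part in the Id2, Psenen and Rbpj values was not tested. Id1 was at 1611, 2889 and 1279 in sham and 468, 696 and 1204 in OHT, lower without overlap, with -1.31 ± 0.49 (limma adjusted p = 0.370). Id3 overlapped, with means of 4911 ± 2417 and 4282 ± 3109. Id4, named after its values were seen, was at 62.0, 1421 and 1304 in sham and 47.0, 59.3 and 84.9 in OHT. Sham 1 lay within the OHT range of Id4, and sham 2 and sham 3 lay far above it. The astrocyte list was likewise low in sham 1, at 5.98e-04% of reads, and higher in sham 2 and sham 3, at 0.0736% and 0.135%. In OHT it was at 0.00600% to 0.00919%, and its part in the Id4 values was not tested. DESeq2 called Id4 lower (adjusted p = 0.00204, in a range over alternatives from 0.00204 to 1.00), and its difference was 0.12 ± 1.30 when the rod covariate was added. Over all 52 listed pathway genes that passed the filter, limma called 0 and DESeq2 called 3, Hes5, Hey2 and Id4, where DESeq2 called 1.80% of all genes it tested (250 of 13893).

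The cultures were set beside the sorted libraries in ppm, with no test, because the 2 tables were normalised separately. Of the 10 factors, 7 were lower in all 3 cultures than in all 6 sorted libraries (Sox2, Sox9, Pax6, Lhx2, Rax, Six3 and Hes1), where 17.7% of 14375 genes were. Nfia and Nfib were higher in all 3 cultures than in all 6 sorted libraries, 2 of 10, where 34.5% of genes were. Notch1 lay within the sorted range. The cultures came from pups and had serum, passage and no bead capture, all at once, and these cannot be told apart.

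Rax was close to absent in the cultures: 3, 5 and 9 recovered reads, or 0.0452, 0.0661 and 0.117 ppm, against 71.3, 212 and 115 ppm in sham and 28.6, 32.1 and 9.14 ppm in OHT. The mean was 1741-fold below sham, and the read count of culture 1 is no more than a count of 0 allows (3 reads). This limit holds for counting error alone, because the reads come from amplified cDNA with no molecular tags. Hes1 was at 5.72, 5.59 and 6.96 ppm in the cultures against 87.9, 163 and 82.7 ppm in sham, 18.3-fold lower in the mean, and OHT 3, at 13.1 ppm, was the sorted library nearest to them. Hes5 had 0, 0 and 4.03 normalised counts in the cultures.

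Sox2 was at 0.814, 0.806 and 0.769 ppm in the cultures, the least variable of the 10 there, against 8.22, 11.1 and 8.03 ppm in sham. Sox9 was at 11.1, 17.5 and 16.2 ppm against 80.1, 234 and 179 ppm in sham. These were 11.5-fold and 11.0-fold lower in the mean, and neither overlapped with OHT. Pax6, Six3 and Lhx2 were 8.36-fold (5.49-fold without sham 2), 7.32-fold and 6.37-fold lower than in sham, with culture means of 5.49 ± 0.703, 2.25 ± 0.755 and 3.16 ± 1.05 ppm (SD, n = 3). Beside these values, the Müller glia list was at 0.0307% ± 0.00799 of reads in the cultures and 0.495% ± 0.281 in sham, and the mural and fibroblast list at 0.650% ± 0.147 and 0.0189% ± 0.00630. Their part in the 7 lower factors was not tested.

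Nfia was at 90.1, 155 and 161 ppm in the cultures, against 71.5, 46.6 and 37.1 ppm in sham and 39.7, 24.7 and 81.7 ppm in OHT, so that culture 1 was only just above OHT 3. Nfib was at 51.0, 43.8 and 51.1 ppm, against 16.4, 29.8 and 17.6 ppm in sham and 39.4, 7.87 and 32.8 ppm in OHT. Their means were 2.62-fold and 2.29-fold above sham. When each library was scaled to its total without the 20 highest genes, or to the median ratio over genes above 0 in all 9 libraries, neither cleared every sorted library, while the 7 lower factors did so under both. Notch1, at 24.6, 29.7 and 26.4 ppm in the cultures and 27.7, 30.4 and 18.8 ppm in sham, had nearly the same mean (26.9 and 25.6 ppm).

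**Figure D4:**
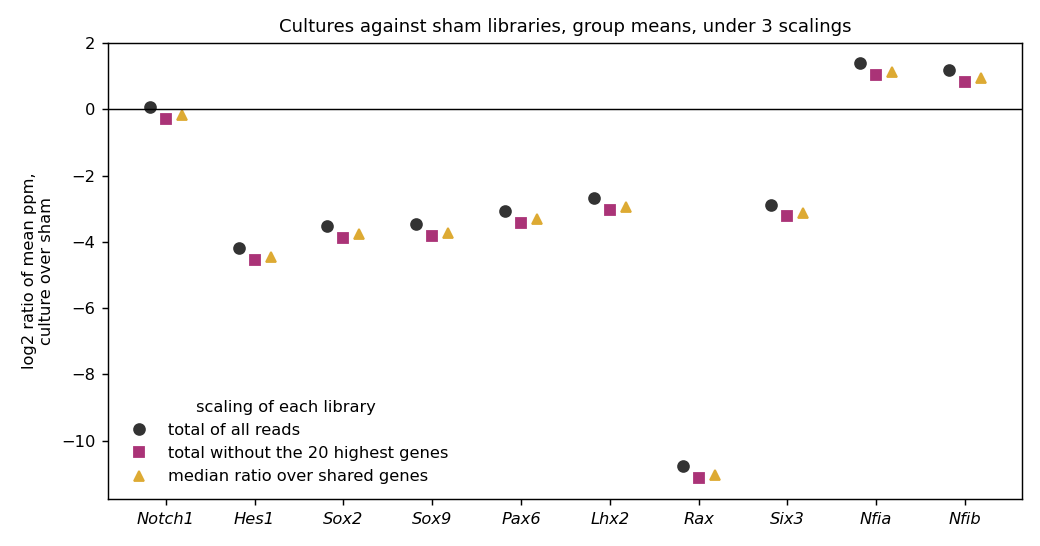
Log2 ratio of the mean ppm in the 3 cultures over that in the 3 sham libraries for the 10 factors, with each library scaled to its total reads (circles), to its total without the 20 highest genes (squares) or to the median ratio over shared genes (triangles). Rax lies near -10.77, 7 factors lie at or below -2.67, and Nfia and Nfib lie above 0 under all 3 scalings.

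Of the 51 pathway genes with enough reads in both tables, 13 were lower in all cultures than in all sorted libraries and 13 were higher, where 17.7% of all genes were lower and 34.5% were higher. The genes named next are ones these counts hold. Of the 8 progenitor factors 5 were below, among them Six6, Otx2, Prox1 and Nr2e1, and Meis2 was above. Among Notch genes, Hes5 and Nrarp were below, while Jag1, Notch3, Maml1 and Spen were above. Id1 and Id3 were above, with Id3 at a mean of 963 ppm in the cultures and 121 ppm in sham, and Id2 was below. Sox11, of the list of other SOX and NFI factors, was named here after its values were seen. It was at 18136, 21430 and 24708 normalised counts in the cultures and between 14.0 and 36.4 in the sorted libraries. Tfap2b, a gene of the amacrine list likewise picked by its value, was at 25822, 22545 and 27992 in the cultures and between 35.9 and 307 in the sorted ones. It made up nearly all of the amacrine list in the cultures, 0.0313%, 0.0288% and 0.0362% of reads, of 0.0322%, 0.0298% and 0.0373% for the whole list. In the sorted libraries that list took at most 0.00194%. The proneural factors Neurod1 and Neurod4 were at 6.22, 2.07 and 0, and at 0 in each, in cultures 1 to 3. Which cells of the cultures hold Sox11 and Tfap2b was not tested.

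Levels can be ordered between genes only per length, here as ppm per kb of the longest protein-coding GENCODE M21 transcript. In sham the order was Hes1, Rax, Sox9, Pax6, Lhx2, Nfia, Six3, Sox2, Notch1 and Nfib. Hes1 (75.8 ± 30.6), Rax (57.1 ± 31.0) and Sox9 (39.7 ± 18.9 ppm per kb, SD, n = 3) had overlapping ranges, and all 3 lay clear of Pax6 (10.4 ± 6.17). Among the lower 7, only Sox2 (4.43 ± 0.840) lay clear of the next, Notch1 (1.98 to 3.20). In OHT the same 3 genes led, with Hes1 at 35.6 ± 24.9, Rax at 10.0 ± 5.32 and Sox9 at 9.85 ± 2.22 ppm per kb, and no factor lay clear of its neighbour. In the cultures the order was led by Nfia (14.2 ± 4.14) and Nfib (5.34 ± 0.459), each clear of the next, and Rax came last (0.0328 ± 0.0160 ppm per kb).

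For each factor, the genes with the most similar pattern over the 6 sorted libraries were sought among 11532 genes with a mean of at least 100, by the root mean square difference of log2 values after centring each gene on its mean. The closest to Rax were Cys1 and Fbxo2 (0.26 and 0.28, against a spread of Rax around its own mean of 1.45). The closest to Sox9 were Slc38a3, a glutamine transporter, and Epas1, an oxygen-sensing factor (0.19 and 0.21, own spread 0.96). Those to Hes1 were Tspan3 and Ksr1 (0.21 and 0.23, own spread 1.22), and those to Notch1 were Supt6 and Cand1 (0.08 and 0.13, own spread 0.45).

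Pax6 lay nearest to Gpm6b, a membrane protein of glia and neurons, and Wipi1 (0.09 and 0.16, own spread 0.76). Lhx2 lay nearest to Pdk2 and Epha5 (0.12 and 0.18, own spread 0.65), and Six3 to Phactr1 and Ncam1 (0.18 each, own spread 0.72). The nearest genes were Tmod2 and Napb for Sox2 (0.21 and 0.23, own spread 0.83), Atp6v1g2 and Nufip2 for Nfia (0.12 and 0.13, own spread 0.53), and Ccl27a and Nrxn3 for Nfib (0.11 and 0.18, own spread 0.90). No factor of the 10 was among the 2 nearest genes of another, and with 6 libraries and this many genes a close match is a description only.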

How the data were processed

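RNA-seq of 6 sorted and 3 culture libraries was read from 2 tables deposited by the authors. Per the labels' protocols, cDNA was amplified with a template-switching kit for very low input and sequenced as 150 bp pairs. The submitters' processing notes name bcl2fastq 2.20, Trim Galore 0.6.6, FastQC 0.11.9, STAR 2.7.1a and the build mm39; for the counting program, its use of strand, the annotation and the normalization, the entry is: not given in the sources used here. The deposited signal is a gene count divided by 1 factor per library, not by length: whole reads were recovered for 100% of values (tolerance 0.05 reads), though the culture factors gave no independent check. No column lacked a sample (0 columns).

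OHT and sham were compared with limma 3.58.1 in R 4.3.3 (lmFit, eBayes with trend) on log2(value + 1), which understates changes of low genes, with a mean of at least 10 and Benjamini-Hochberg adjustment over all genes kept. For the relative fit the mean log2 of 10 Müller glia marker genes was subtracted from each library. An exact permutation test of 3 against 3 cannot give a two-sided p under 0.1. Levels across tables are ppm, for genes with a mean of at least 0.2 ppm, with no test. Alternatives included edgeR 4.0.16 and DESeq2 1.42.0 on the recovered reads, TMM and quantile scaling, other pseudocounts and filters, a rod covariate, a replicate block, and leaving out each library; a GC content and length correction (splines with 4 degrees of freedom, values for 96.2% of genes kept) was added after seeing the data. The scripts were tested on simulated data.

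The 10 factors and all gene lists were chosen with earlier results of these data known. Besides the 10, the text names from each pathway list the 2 genes with the smallest p and the 2 with the highest mean, any listed gene past the threshold, the 2 nearest genes of each factor and a few cell type markers; genes named after their values were seen are said to be so. Deviations from the group means of same-numbered sham and OHT libraries correlated at 0.08, -0.02 and -0.05, so the numbers were not taken to pair them. Proteins and the promoters of 4 factors were not used here. Values of some listed genes are not reported here.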

Additional observations from a re-analysis of the deposited data

How the results depend on the processing

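With DESeq2 on the recovered reads, 2 of the 10 factors and 3 listed pathway genes were called in place of 0; no other alternative run called any. The count of factors below sham without overlap was 5 with the deposited scaling and with TMM factors (there with Pax6 in place of Sox2), 3 after quantile normalization and 2 after the GC and length correction. Leaving out 1 library moved it between 5 and 7. Relative to the Müller glia list the count of 3 was 2 with the summed list, 0 with Glul alone and between 3 and 4 with 1 library left out. Of the cultures, 7 factors stayed below and 2 above the sorted libraries without any 1 library, but 0 lay above with the total without the 20 highest genes and 0 with the median ratio. Signs turned for Nfia (-0.16 after quantile normalization, -0.03 with the rod covariate), Six3 (0.26, rod covariate), Jag2 and Id4 (0.12 each, rod covariate), and Notch1 and Spen (0.05 and 0.10, GC and length correction). The median over all genes was itself 0.17 after the GC and length correction, against -0.12 in the main fit. Without 1 library, Nfia ran from -0.25 to 0.50 and Nfib from -0.33 to 1.12. Relative to the list, Notch1 ran from -0.44 to 0.15, Six3 from -0.50 to 0.02, Sox2 from -0.47 to 0.27 and Hes1 from -1.15 to 0.59. The causes were not tested. Of 180 alternative values for the OHT differences of the 10 factors, 169 kept direction and side of the threshold, 9 changed sign and 2 crossed the threshold. This count does not measure robustness. No gene passed in the main fit, and some alternatives, such as the replicate block, cannot change the difference itself. The median over the 10 was -0.29 with the rod covariate, where standard errors ran from 0.57 (Sox9) to 1.19 (Sox2). The rod list was itself lower on average in OHT, so that fit cannot part it well from the group. The median of the other receptors, -2.46, was 0.88 with a mean of at least 100, but only Notch2 was left there and this is its own value.

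With the replicate number as a block, 0 factors and 0 listed genes were called, as without it; same-numbered libraries did not deviate together, so they share only a number.

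The precision of the OHT differences is that of 3 libraries a group (standard errors from 0.42 to 0.74), and among the 10 factors the fewest reads stood behind Rax in the cultures (3 to 9).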
